A study of Homo sapiens with 12 samples.

Results

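The state that 2 genotypes of CCRF-CEM cells reached after 4 h of 100 nM camptothecin was compared by RNA sequencing. CCRF-CEM is an established human T lymphoblast leukemia line. The treated SLFN11 knockout cells gave 3 libraries and the treated SLFN11-positive parent cells, labelled wild-type, gave 3 libraries, chosen by sample title and together 6 of the 12 libraries of the series. Untreated cells received the solvent DMSO, for a time the labels do not give. They supplied a separate difference from 3 knockout libraries and 2 parent libraries, since untreated parent replicate 1 was left out. Neither the way SLFN11 was disrupted, nor whether the line descends from 1 clone, nor the origin of the replicates (separate cultures or not) is stated in the labels. All p-values therefore reflect the scatter of these libraries alone, and that scatter may be technical. The series asks, by its title, how SLFN11 bears on immediate early genes under replication stress.

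Camptothecin locks DNA topoisomerase I onto its cut site, and the trapped complexes become breaks when replication forks or RNA polymerases run into them. SLFN11 is a nuclear protein of the schlafen family that is recruited to stressed replication forks, blocks further replication there and sensitizes cells to such drugs. Immediate early genes are transcribed within minutes of a stimulus without new protein synthesis, and the mRNAs of replication-dependent histones are made and kept while DNA is being replicated.

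Exon reads per treated library ran from 42493441 to 54711818 in knockout cells and from 53736904 to 63677395 in parent cells. Untreated parent replicate 1, which was left out, held 135760458; with it in the fit 3058 genes were higher and 3348 lower in treated knockout cells, fewer than without it. The share of reads in introns was 31.5% ± 1.81 in treated knockout libraries and 29.2% ± 0.528 in treated parent libraries (SD, n = 3 each; exact two-sided permutation p = 0.1, the smallest that 3 against 3 allows). Without treated knockout replicate 3 these shares were 30.4% and 29.2% (exact p = 0.2). Treated knockout replicate 3 stood apart from the other libraries of its group: its counts differed from theirs by a chi-square of 16.6 and 18.3 per degree of freedom, against 5.07 between replicates 1 and 2. Untreated knockout replicate 3 stood apart as well, with 12.1 and 14.1, against 5.58 between untreated knockout replicates 1 and 2, and had 0.798% of reads in mitochondrial genes, against 0.413% and 0.433% in those. Without it 1894 genes were higher and 1593 lower in untreated knockout cells, against 2244 and 1926 with it. The 2 untreated parent libraries used, on which every difference in DMSO rests, stood about as far apart, with 11.9 per degree of freedom. Reads of the abundant small RNA genes RN7SL1, RN7SL2, RN7SL4P and RN7SK took 10.9% ± 0.135 of exon reads in treated knockout libraries and 12.6% ± 0.176 in treated parent libraries. Without treated knockout replicate 3 the immediate early, NF-kappaB and core histone lists had 39, 21 and 55 lower genes, against 39, 20 and 56 with it. The part of the small RNA share in the results was not tested. Levels are in CPM, exon read counts scaled to the library size after adjustment by the TMM method of edgeR. The T-lineage markers fitted the label of the line: all 9 passed the filter on low counts, and their summed level was 1231 to 1314 CPM in treated knockout libraries, against 1002 to 1028 CPM in treated parent libraries. Markers of other cell types were low. B-lineage markers summed to 48.8 to 56.1 CPM in treated knockout libraries, against 35.0 to 37.0 CPM in treated parent libraries, erythroid markers to 13.2 to 13.9 CPM in treated knockout libraries, against 9.78 to 10.8 CPM in treated parent libraries, and myeloid markers to 1.11 to 1.52 CPM in treated knockout libraries, against 1.52 to 1.61 CPM in treated parent libraries. Epithelial and fibroblast markers summed to 9.18 to 9.70 CPM in treated knockout libraries, against 2.41 to 3.35 CPM in treated parent libraries, and EPCAM, an epithelial adhesion molecule, averaged 7.78 CPM in treated knockout cells and 1.34 CPM in treated parent cells. Of the defining markers, MPO, CD14, CD33, ALAS2, CDH1 and COL1A2 did not pass the filter on low counts, and the part of the other cell types in the results was not tested.

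SLFN11 mRNA itself (chr17:33677323-33700719, hg19, the build of all gene positions here) stood at 92.4, 95.99 and 92.9 CPM in the treated knockout libraries, against 123, 128 and 124 CPM in the treated parent libraries. The treated knockout libraries were all below the treated parent libraries, and the log2 difference (treated knockout minus treated parent) was -0.42 ± 0.04 (SE; edgeR adjusted p = 2.16e-10). Without camptothecin the level was 92.03, 89.5 and 89.7 CPM in the untreated knockout libraries, against 112 and 117 CPM in the untreated parent libraries. Intron reads of SLFN11 went the other way, with a log2 difference of 0.63. The exon level goes with the labels in direction and is far from 0, so it checks the knockout label only in part, since a disrupted gene can still be transcribed.

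Of 23566 genes tested, 4272 (18.1%) were higher and 4749 (20.2%) lower in treated knockout cells at an edgeR adjusted p below 0.05, which is 38.3% in all. The counts called in gene lists below are to be read against 18.1% higher and 20.2% lower. By at least 2-fold, 908 (3.85%) were higher and 597 (2.53%) lower. Many of the higher genes were higher without camptothecin as well. In untreated cells 2244 genes (9.52%) were higher and 1926 (8.17%) lower in the knockout. Of the genes higher after camptothecin 1654 were also higher in untreated knockout cells, 55 were lower there and 2563 were not called there. Of the genes lower after camptothecin 1233 were also lower in untreated knockout cells, 142 were higher there and 3374 were not called there. The change of the difference with camptothecin was tested in the same model, as treated difference minus untreated difference. It was positive for 1202 genes (5.1%) and negative for 2210 (9.38%), and among the genes lower in treated knockout cells it was negative for 1965. The treated and the untreated comparison share no library. Without 1 of the 2 untreated parent libraries 1484 to 1493 genes were higher and 1097 to 1100 lower in DMSO, 802 to 812 were lower in both comparisons, and 653 to 705 had a positive change of the difference, against 2022 without treated knockout replicate 3. In bulk libraries, fewer cells of a type and less RNA per cell cannot be told apart. Scaled by library size alone, the median over all genes moved to 0.13, and 6480 genes were higher and 3004 lower, so that 68.3% of calls were higher instead of 47.4%.

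**Figure D1:**
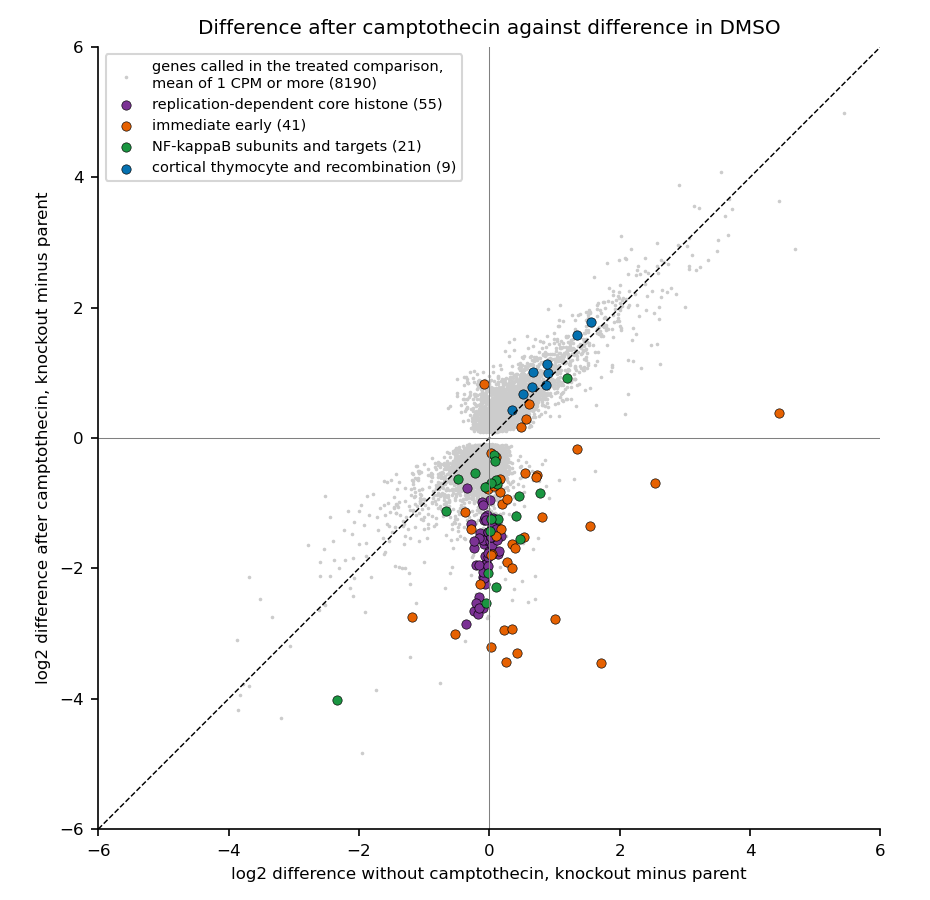
Log2 difference between knockout and parent after camptothecin (vertical) against the log2 difference in DMSO (horizontal). Grey points are the 8190 genes called after camptothecin with a mean of at least 1 CPM over the treated libraries (5 lie beyond the axes), coloured points are called members of 4 lists, and the dashed line marks equal differences. Core histones and most immediate early genes lie near 0 on the horizontal axis and far below 0 on the vertical one, while the 9 cortical thymocyte genes lie near the dashed line.

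Immediate early genes were mostly lower in treated knockout cells. Of 49 tested, 39 were lower (79.6%), 5 higher and 5 not called, with a median log2 difference of -1.21 against 0.01 over all genes. JUN (chr1:59246464-59249784), one of the AP-1 subunits, had 69.5, 70.04 and 68.02 CPM in the treated knockout libraries, against 688, 698 and 658 CPM in the treated parent libraries. The groups lay far apart, and the log2 difference was -3.30 ± 0.04 (edgeR adjusted p = 5.87e-31). In DMSO the genotypes stood close and in the other order, with 61.4, 59.1 and 60.5 CPM in the untreated knockout libraries, against 45.7 and 43.9 CPM in the untreated parent libraries. FOS, the partner of JUN in AP-1, had 1.82, 1.34 and 1.91 CPM in the treated knockout libraries, against 20.2, 18.2 and 16.1 CPM in the treated parent libraries, a log2 difference of -3.44 ± 0.14 (edgeR adjusted p = 1.07e-18). EGR1, a zinc finger activator, had 2.25, 2.33 and 2.93 CPM in the treated knockout libraries, against 23.4, 22.01 and 23.6 CPM in the treated parent libraries. ATF3, a stress-induced relative of JUN, had 15.1, 16.03 and 14.7 CPM in the treated knockout libraries, against 117, 122 and 115 CPM in the treated parent libraries. For each of these genes no treated knockout library reached any treated parent library, and the log2 differences were -3.20 ± 0.11 for EGR1 and -2.95 ± 0.05 for ATF3. The treated knockout means of FOS, EGR1 and ATF3 were 1.69, 2.51 and 15.3 CPM, and their untreated knockout means were 1.89, 1.77 and 13.2 CPM. IER2, a nuclear regulator, had 57.9, 61.2 and 52.3 CPM in the treated knockout libraries, against 186, 189.7 and 179.5 CPM in the treated parent libraries, and its log2 difference of -1.69 ± 0.05 stood against 0.40 in DMSO.

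DUSP8 (chr11:1575273-1593149), a phosphatase that switches off JNK and p38, differed in opposite directions with and without the drug. Its level was 3.46, 3.77 and 4.19 CPM in the treated knockout libraries, against 40.5, 43.4 and 41.7 CPM in the treated parent libraries. In DMSO it was 2.96, 2.87 and 2.57 CPM in the untreated knockout libraries, against 1.03 and 0.649 CPM in the untreated parent libraries. The log2 difference was thus -3.46 after camptothecin and 1.72 without it, a change of -5.18 (edgeR adjusted p = 2.62e-19). NR4A3, an orphan nuclear receptor, also turned round, with 1.95 ± 0.425 CPM in treated knockout cells and 4.95 ± 0.381 CPM in treated parent cells after camptothecin (SD, n = 3 each) and log2 differences of -1.35 after camptothecin and 1.54 in DMSO. Over the list, 40 of 49 members had a negative change of the difference and 1, KLF2, a positive one. In DMSO the order was mostly the other way, as 23 members were higher and 2 lower in untreated knockout cells, with a median of 0.27.

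Other lower members, given with their log2 differences in brackets as for all genes named from here on, included EGR3 (-3.77), FOSB (-3.01), RGS16 (-2.92), a brake on G protein signalling, and ARC (-2.77). Feedback regulators followed with PPP1R15A (-2.23), which promotes dephosphorylation of eIF2alpha, DUSP1 (-1.99), BTG2 (-1.90) and ZFP36 (-1.50), an mRNA decay factor. MCL1, a survival factor of the BCL2 family, was lower (-0.78), and so was MYC (-0.29). Not every member was lower: KLF2 (0.82), DUSP6 (0.52), RHOB (0.39), NAB2 (0.30) and HES1 (0.17) were higher in treated knockout cells, and EGR2, TRIB1, NAB1, RGS1 and FOSL1 were not called. RHOB stood at 7.06 CPM in treated knockout cells and 5.39 CPM in treated parent cells, and at 5.09 CPM in untreated knockout cells and 0.241 CPM in untreated parent cells. The groups did not overlap for 46 of the 49 genes, against 46.4% of all genes tested.

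**Figure D2:**
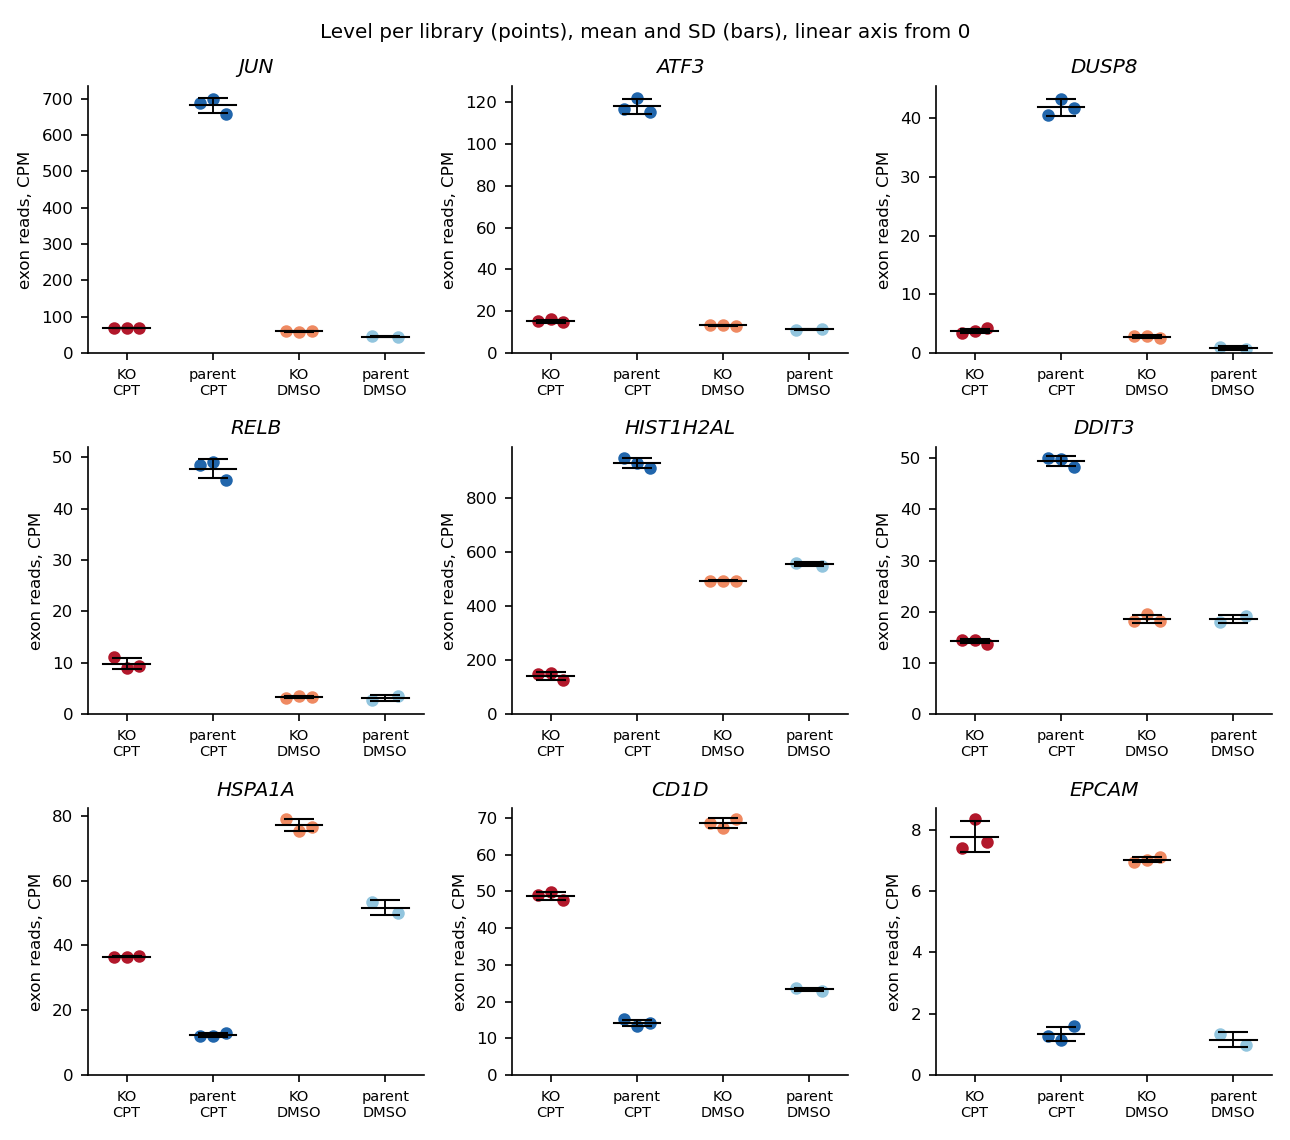
Exon read level in CPM of 9 genes in each library, on linear axes from 0: treated knockout, treated parent, untreated knockout and untreated parent. Points are libraries, the wide bar is the mean and the thin bar the SD; JUN, ATF3, DUSP8, RELB, HIST1H2AL and DDIT3 are high in treated parent libraries, HSPA1A and CD1D are lower in treated parent libraries than in treated knockout libraries, and EPCAM differs by genotype with and without camptothecin.

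Promoter windows of JUN, DUSP8 and EGR1 are shown as examples that hold the classic stress and serum response elements; they were picked for these motifs among the lower members. Sequences are RefSeq windows on GRCh38.p14, from 250 bases before to 50 bases after the gene's start, with the searched motif in capitals. JUN (chr1:58783998-58784297, minus strand) holds 1 TGACNTCA, the site of JUN and ATF dimers, and DUSP8 (chr11:1572222-1572521, minus strand) holds 3. EGR1 (chr5:138465229-138465528, plus strand) holds 2 CArG boxes, the site of serum response factor.
JUN: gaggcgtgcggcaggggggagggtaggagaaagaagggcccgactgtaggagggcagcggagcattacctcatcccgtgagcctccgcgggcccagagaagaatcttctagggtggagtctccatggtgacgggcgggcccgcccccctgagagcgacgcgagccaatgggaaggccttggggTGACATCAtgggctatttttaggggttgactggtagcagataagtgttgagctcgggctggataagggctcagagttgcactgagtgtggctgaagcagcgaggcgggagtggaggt
DUSP8: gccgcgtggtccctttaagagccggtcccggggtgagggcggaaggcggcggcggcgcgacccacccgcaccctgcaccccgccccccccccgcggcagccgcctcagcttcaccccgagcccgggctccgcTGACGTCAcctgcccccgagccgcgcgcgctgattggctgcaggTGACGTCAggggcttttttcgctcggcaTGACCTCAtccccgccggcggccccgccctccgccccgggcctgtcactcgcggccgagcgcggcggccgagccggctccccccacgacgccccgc
EGR1: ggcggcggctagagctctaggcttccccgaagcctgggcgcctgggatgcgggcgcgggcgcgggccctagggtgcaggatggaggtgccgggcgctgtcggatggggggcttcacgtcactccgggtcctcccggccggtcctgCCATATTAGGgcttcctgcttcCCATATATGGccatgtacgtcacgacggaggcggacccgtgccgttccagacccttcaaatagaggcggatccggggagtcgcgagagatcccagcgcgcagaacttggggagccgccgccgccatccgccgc
Both strands were searched, and a gene with several windows counted once. TGACNTCA was present for 10 of the 31 lower immediate early genes that had a window (32.3%), against 2515 of 27305 genes (9.21%). The CArG box was present for 2 of the 31 (6.45%), against 1.6% of all genes. The shorter AP-1 site TGANTCA was present for 1 of the 31 (3.23%), against 9.37%. Since 39 of the 49 immediate early genes tested were lower, and lower members were not set against the others, these shares describe the list. The matches describe the windows and no binding was measured.

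NF-kappaB genes followed the same direction. Of 23 tested subunits, inhibitors and targets, 20 were lower in treated knockout cells (87.0%) and 1 higher, with a median log2 difference of -0.84. In DMSO 4 were lower and 5 higher, with a median of 0.07, and the change of the difference was negative for 19. Among the subunits, RELB (chr19:45504687-45541451) had 11.02, 9.02 and 9.29 CPM in the treated knockout libraries, against 48.5, 49.1 and 45.6 CPM in the treated parent libraries. The groups lay apart, with a log2 difference of -2.29 ± 0.08 (edgeR adjusted p = 5.16e-20), against 0.10 in DMSO (edgeR adjusted p = 0.694). NFKB2 (-1.56), NFKB1 (-1.12), REL (-0.70) and RELA (-0.27) were also lower. Among the inhibitors, which are themselves NF-kappaB targets, NFKBIA was lower (-1.25), as were TNFAIP3 (-1.25) and the nuclear cofactor BCL3 (-2.53).

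Of the secreted and surface products, IL8 (CXCL8), a neutrophil chemokine, had 0.638, 0.53 and 0.542 CPM in the treated knockout libraries, against 9.55, 9.25 and 9.01 CPM in the treated parent libraries. It was lower in untreated knockout cells too (-2.34). CD69, an early activation marker, was lower (-2.07) and so was TNF (-1.20). BIRC3, an inhibitor of apoptosis, had 37.1, 41.1 and 36.9 CPM in the treated knockout libraries, against 69.1, 69.7 and 67.8 CPM in the treated parent libraries. In DMSO the order was the opposite, with 33.6, 35.7 and 37.1 CPM in the untreated knockout libraries, against 20.9 and 20.3 CPM in the untreated parent libraries, and the change of the difference was -1.63 (edgeR adjusted p = 5.04e-16). ICAM1 was the member that was higher, by 0.92 after camptothecin and 1.20 in DMSO. The BIRC3 window (chr11:102317234-102317533, plus strand) is shown for its 2 kappaB sites.
BIRC3: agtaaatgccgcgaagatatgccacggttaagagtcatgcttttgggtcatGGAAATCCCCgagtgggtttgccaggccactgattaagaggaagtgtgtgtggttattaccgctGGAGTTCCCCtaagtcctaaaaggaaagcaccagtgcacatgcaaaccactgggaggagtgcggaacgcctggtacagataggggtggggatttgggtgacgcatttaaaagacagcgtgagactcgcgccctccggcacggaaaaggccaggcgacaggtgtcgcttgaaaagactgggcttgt
A kappaB site was present for 12 of the 17 lower NF-kappaB genes that had a window (70.6%), against 7.09% of all genes. The list holds textbook NF-kappaB targets, so this share describes its choice.

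Replication-dependent core histones were lower almost without exception. Of 58 tested, 56 were lower in treated knockout cells (96.6%), 52 of them by at least 2-fold, and the median log2 difference was -1.58. The other 2, HIST1H4G and HIST1H4F, were not called and scarcely expressed (HIST1H4G 0.0445 CPM in treated knockout cells and 0.362 CPM in treated parent cells, HIST1H4F 0.158 CPM in treated knockout cells and 0.295 CPM in treated parent cells). HIST1H2AL (chr6:27833033-27833605) had 148, 153 and 126 CPM in the treated knockout libraries, against 945, 929 and 909 CPM in the treated parent libraries. In DMSO the genotypes stood much closer, with 493, 493 and 490.1 CPM in the untreated knockout libraries, against 559 and 549 CPM in the untreated parent libraries, and the change of the difference was -2.54 (edgeR adjusted p = 4.93e-19). HIST1H2BM had 28.3, 27.6 and 25.7 CPM in the treated knockout libraries, against 198, 189 and 205 CPM in the treated parent libraries, a log2 difference of -2.86 ± 0.05. HIST1H2AB had 84.1, 83.8 and 72.1 CPM in the treated knockout libraries, against 503, 504 and 506 CPM in the treated parent libraries. In all 3 genes the treated knockout libraries lay below the untreated ones of both genotypes, and for HIST1H2AL and HIST1H2AB the treated parent libraries lay above them. The change of the difference was negative for 55 of the 58, and in DMSO 10 were lower and 4 higher with a median of -0.05. Core histone genes are near-identical copies of each other, so the split of reads among single members is uncertain, although the called members were all lower.

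H2A and H2B genes led the called members, and HIST1H4D (-0.75), HIST1H3E (-0.76), HIST1H3A (-0.95) and HIST1H4C (-0.98) closed them. The HIST1H2AL window (chr6:27865067-27865366, plus strand), also known as H2AC16, is shown with its 3 CCAAT boxes, read on either strand, and 1 TGACNTCA in capitals.
HIST1H2AL: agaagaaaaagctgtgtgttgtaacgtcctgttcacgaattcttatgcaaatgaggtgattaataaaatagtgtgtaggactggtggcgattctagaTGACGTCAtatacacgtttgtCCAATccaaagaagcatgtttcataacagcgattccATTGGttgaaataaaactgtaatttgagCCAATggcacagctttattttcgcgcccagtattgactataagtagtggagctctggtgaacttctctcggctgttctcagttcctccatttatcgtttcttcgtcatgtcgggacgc
CCAAT was present for 37 of the 46 lower core histones with a window (80.4%), against 39.7% of all genes. TGACNTCA was present for 9 of the 46 (19.6%), against 9.21% of all genes. Since 56 of the 58 core histones tested were lower, these shares describe the gene family.

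All 8 linker histone H1 genes were lower, with a median log2 difference of -1.46. HIST1H1C had 631, 605 and 540.2 CPM in the treated knockout libraries, against 1729, 1728 and 1723 CPM in the treated parent libraries. HIST1H1T, known as a testis H1, had 0.41, 0.283 and 0.564 CPM in the treated knockout libraries, against 5.14, 5.91 and 5.78 CPM in the treated parent libraries. HIST1H1A was low in knockout cells with and without the drug (-3.94 and -3.83 on the log2 scale), and the other 7 had a negative change of the difference. The replication-independent variants did not share this direction, as 3 of 10 were higher and 3 lower (5 higher and 2 lower with the library size alone). H3F3A, which encodes H3.3, had 439.6, 440.1 and 409.5 CPM in the treated knockout libraries, against 281, 275 and 266 CPM in the treated parent libraries, whereas its sister gene H3F3B was lower (-0.50). H3F3A intron reads showed no such difference (-0.01, edgeR adjusted p = 0.93). H2AFY2 (macroH2A2) was higher by 1.39 after camptothecin and 1.41 in DMSO. Among 11 factors of histone mRNA synthesis and processing, 6 were lower, led by ZNF473 (-0.56), CASP8AP2 (-0.40) and LSM10 (-0.34), and 2 were higher, CPSF2 (0.14) and SLBP (0.27), which binds the histone mRNA stem-loop.

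**Figure D3:**
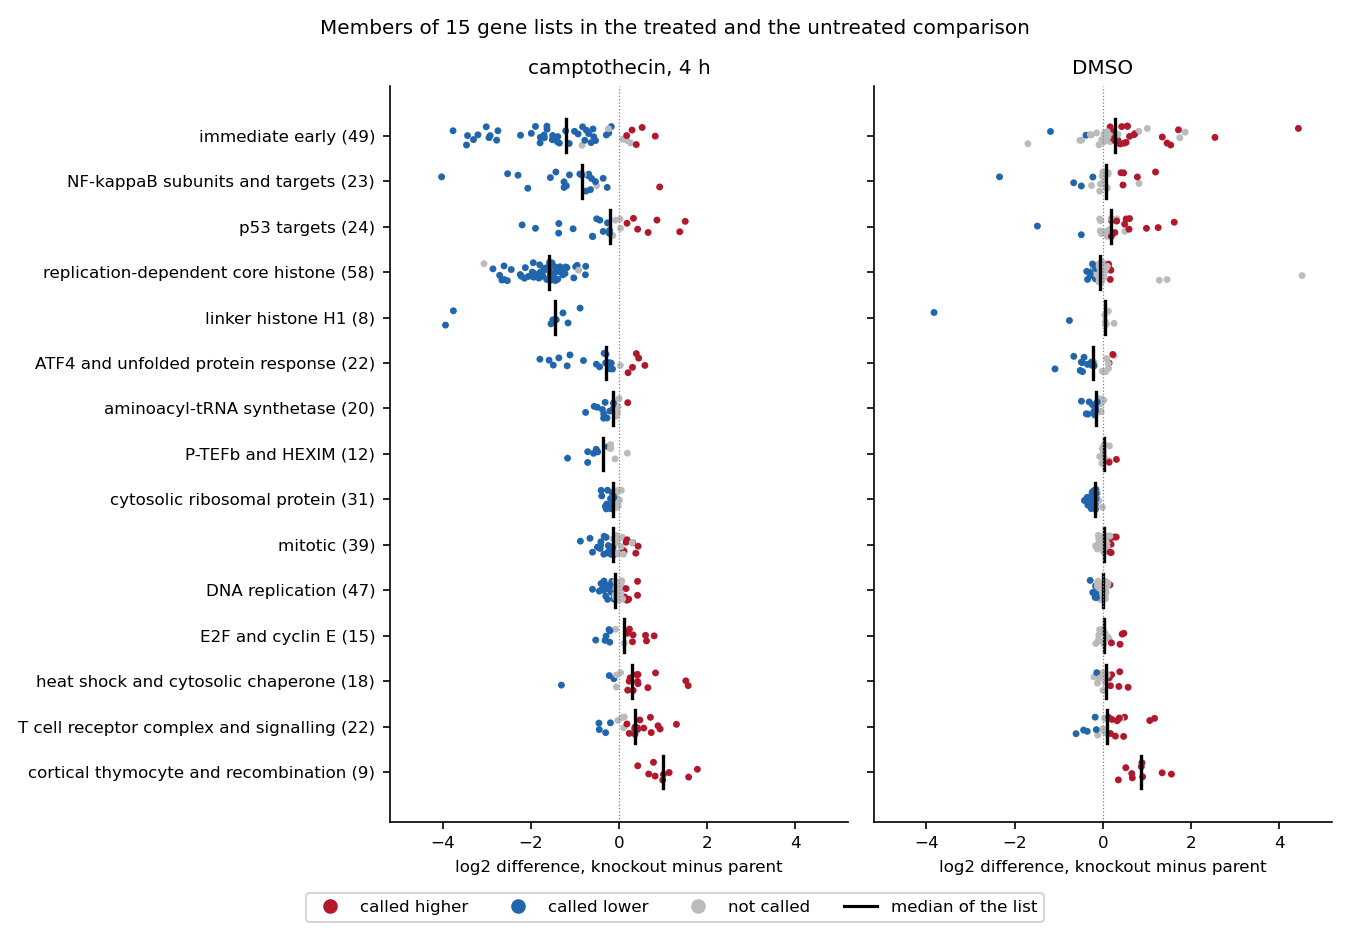
Log2 difference between knockout and parent for the tested members of 15 gene lists, after camptothecin (left) and in DMSO (right). Each point is a gene, coloured by its call at an adjusted p below 0.05, and the black bar is the median of the list; the immediate early, NF-kappaB and histone medians lie between -1.58 and -0.84 after camptothecin and between -0.05 and 0.27 in DMSO.

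p53 targets were divided. Of 24 tested, 13 were lower and 7 higher in treated knockout cells, with a median of -0.22. BBC3 (PUMA), a pro-apoptotic BH3-only gene, had 1.71, 2.37 and 1.89 CPM in the treated knockout libraries, against 9.54, 9.06 and 8.97 CPM in the treated parent libraries. BTG2, an antiproliferative gene that is also on the immediate early list, had 16.3, 15.98 and 16.3 CPM in the treated knockout libraries, against 60.05, 61.8 and 58.7 CPM in the treated parent libraries. PLK3 (-1.37), SESN2 (-1.36) and the death receptor gene TNFRSF10B (-1.04) were lower as well. PHLDA3, an inhibitor of AKT, was higher with 1.62, 1.503 and 1.37 CPM in the treated knockout libraries, against 0.491, 0.608 and 0.478 CPM in the treated parent libraries, as were ZMAT3 (1.38) and TP53I3 (0.86). CDKN1A (p21) had 16.7, 18.4 and 13.8 CPM in the treated knockout libraries, against 22.6, 23.9 and 23.1 CPM in the treated parent libraries. In DMSO it had 6.53, 8.23 and 7.35 CPM in the untreated knockout libraries, against 2.23 and 2.57 CPM in the untreated parent libraries, so that the difference was -0.51 after camptothecin and 1.62 without it. MDM2 was not called (0.03, edgeR adjusted p = 0.536).

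CDKN1A is 1 of 8 CDK inhibitors tested, of which 2 were higher and 3 lower, with CDKN1B (p27, -0.59) and CDKN3 (-0.34) lower as well, CDKN2C higher by 0.28 and CDKN2B (p15) higher by 0.83. These shares are 25.0% higher and 37.5% lower, against 18.1% and 20.2% of all genes tested. Without treated knockout replicate 3 the CDKN2B call was lost (edgeR adjusted p = 0.0678). In the BCL2 family 7 of 16 were higher (43.8%) and 4 lower (25.0%). The lower ones were BBC3, MCL1 (-0.78), PMAIP1 (NOXA, -0.60) and the pore former BAK1 (-0.24). The higher ones included the survival genes BCL2L2 (0.78) and BCL2A1 (0.79) and the BH3-only gene BMF (0.91), whose call was lost without treated knockout replicate 2 (edgeR adjusted p = 0.0546).

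Genes of amino acid stress and the unfolded protein response were mostly lower. Of 22 tested, 16 were lower and 5 higher, with a median of -0.30 after camptothecin and -0.21 in DMSO. DDIT3 (CHOP) had 14.4, 14.6 and 13.8 CPM in the treated knockout libraries, against 50.03, 49.9 and 48.3 CPM in the treated parent libraries. The knockout libraries did not reach the parent libraries, whereas in DMSO the groups overlapped, with 18.1, 19.5 and 18.2 CPM in the untreated knockout libraries, against 18.01 and 19.2 CPM in the untreated parent libraries. ATF5 had 17.3, 16.7 and 15.2 CPM in the treated knockout libraries, against 50.3, 49.5 and 48.1 CPM in the treated parent libraries, CHAC1 was lower (-1.49) and so was ATF4 itself (-0.81). Unlike DDIT3, ATF5, CHAC1 and ATF4 were also lower in untreated knockout cells (-1.08, -0.66 and -0.46). The chaperones of the endoplasmic reticulum HSPA5 (0.59), PDIA4 (0.45), SDF2L1 (0.39) and HYOU1 (0.31) were higher, with XBP1 (0.21). Aminoacyl-tRNA synthetases, several of which are ATF4 targets, were lower in 11 of 20 and higher in 1 (WARS), led by CARS (-0.76), YARS (-0.56) and TARS (-0.49), which were lower in DMSO too (-0.48, -0.37 and -0.34). Cytosolic ribosomal protein genes were lower in 22 of 31 and higher in none, by a median of -0.14, and in DMSO 27 of 31 were lower with a median of -0.18; with the library size alone as the scale 7 were lower and 4 higher after camptothecin, and with all 12 libraries in the fit 6 were lower.

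Cytosolic chaperones were mostly higher. Of 18 heat shock genes 12 were higher and 3 lower in treated knockout cells, with a median of 0.29, and the change of the difference was positive for 10. In introns 4 of 14 were higher and 4 lower, with a median of -0.03. HSPA1A, a stress-inducible HSP70, had 36.5, 36.4 and 36.7 CPM in the treated knockout libraries, against 11.98, 12.1 and 12.9 CPM in the treated parent libraries. In DMSO it had 79.05, 75.5 and 76.6 CPM in the untreated knockout libraries, against 53.4 and 50.03 CPM in the untreated parent libraries. Both treated groups thus lay below the untreated libraries of their own genotype, and the treated parent libraries lay lowest. HSPA1L had 8.698, 7.07 and 8.38 CPM in the treated knockout libraries, against 3.16, 2.82 and 2.41 CPM in the treated parent libraries, and HSPA8 (0.65), HSPA1B (0.83), HSP90AA1 (0.43) and HSPH1 (0.42) were also higher. HSPA6 was the clear exception, with 0.706, 0.795 and 0.608 CPM in the treated knockout libraries, against 1.41, 2.02 and 1.84 CPM in the treated parent libraries. HSPA1A, HSPA1B and HSPA1L share much sequence, so reads could be split among them in ways the counts do not show.

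Regulators of transcript elongation were lower where they differed. Of 12 P-TEFb and HEXIM genes 7 were lower and none higher, with a median of -0.37 against 0.02 in DMSO. HEXIM1, which holds P-TEFb inactive, had 29.5, 28.8 and 28.7 CPM in the treated knockout libraries, against 66.7, 64.8 and 63.8 CPM in the treated parent libraries. In DMSO it was 23.8, 23.4 and 22.4 CPM in the untreated knockout libraries, against 20.1 and 17.3 CPM in the untreated parent libraries, so the order of the genotypes turned round, although the untreated call was lost without untreated parent replicate 3 (edgeR adjusted p = 0.0827) and with all 12 libraries (0.15). MEPCE (-0.71), the capping enzyme of 7SK RNA, ELL2 (-0.71), CCNT1 (-0.52) and CDK9 (-0.25) were lower too. Of 16 SR splicing factors and CLK kinases, 9 were lower and 4 higher, with CLK4 (-0.67), CLK1 (-0.61) and SRSF7 (-0.46) at one end and SRSF1 (0.42) and TRA2B (0.36) at the other.

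Genes of DNA replication, the cell cycle and repair differed mostly by small amounts. Of 47 replication genes 21 were lower and 7 higher, by a median of -0.08, but with the library size alone as the scale 13 were lower and 18 higher, so the direction of the list turns with the scale. GINS3 (38.6 ± 1.96 CPM in treated knockout cells and 58.7 ± 1.54 CPM in treated parent cells; SD, n = 3 each), ORC5 (-0.45) and ORC6 (-0.41) were lowest. RPA1 (129 ± 10.6 CPM in treated knockout cells and 96.7 ± 2.46 CPM in treated parent cells), the large subunit of the single-strand binding protein, RFC4 (0.42) and PCNA (0.22) were higher. Nucleotide supply enzymes gave 6 higher and 1 lower of 14. DCK, the kinase that activates cytarabine, was higher by 0.35, RRM2 by 0.26, and IMPDH2 was lower (-0.33).

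In the E2F and cyclin E list 7 of 15 were higher and 6 lower. CCNE2 had 169.8, 185 and 169.6 CPM in the treated knockout libraries, against 102, 102 and 97.6 CPM in the treated parent libraries, with log2 differences of 0.80 after camptothecin and 0.39 in DMSO, and CCNE1 and RB1 were higher by 0.62 and 0.60. E2F2 (-0.53) and E2F1 (-0.32) were lower. Of 39 mitotic genes 21 were lower and 7 higher, with a median of -0.13 (-0.01 with the library size alone, 14 lower and 12 higher). CDC25C, the phosphatase that opens mitosis, had 13.6, 11.8 and 11.3 CPM in the treated knockout libraries, against 21.9, 22.6 and 22.5 CPM in the treated parent libraries. CENPE (-0.66), KIF2C (-0.60) and AURKA (-0.49) were lower, while CDC25B (0.43), TOP2A (0.38) and CCNA2 (0.31) were higher. The change of the difference was negative for 16 of the 39 and positive for 1, TOP2A, whose call was lost without untreated parent replicate 3. In introns 15 of the 39 were lower and 3 higher after camptothecin, and TOP2A was not called (0.03, edgeR adjusted p = 0.684).

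Checkpoint genes were lower in 5 of 15 (33.3%) and higher in 1 (6.67%), against 20.2% and 18.1% of all genes tested. The lower ones were led by HUS1 (-0.44) and CDC25A (-0.29). The library size alone gave 2 lower and 5 higher. The kinase genes ATR (-0.13) and CHEK1 (-0.16) were lower by little and ATM was not called. Homologous recombination and Fanconi genes gave 9 lower and 5 higher of 30, with RAD52 (-0.55) and BRCA2 (-0.30) lower and FANCC (0.34) higher; the library size alone gave 3 lower and 13 higher. TOP1, the target of the drug, was not called (0.20, edgeR adjusted p = 0.615). TDP1, which removes trapped TOP1 from DNA ends, was higher by 0.37, and TDP2 (-0.35), TOP3A (-0.37) and APTX (-0.33) were lower. Of 19 topoisomerase and lesion repair genes 9 were lower (47.4%) and 3 higher (15.8%), or 5 lower and 4 higher with the library size alone.

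Cortical thymocyte genes differed with or without the drug. All 9 cortical thymocyte and recombination genes were higher in treated knockout cells, with a median of 0.99, and all 9 were higher in DMSO, with a median of 0.87. CD1D, a lipid-presenting molecule, had 48.96, 49.9 and 47.7 CPM in the treated knockout libraries, against 15.2, 13.5 and 14.1 CPM in the treated parent libraries. In DMSO it had 68.7, 67.3 and 69.9 CPM in the untreated knockout libraries, against 23.6 and 23 CPM in the untreated parent libraries, so that both genotypes were lower after camptothecin and kept their order. CD1A had 63.9, 65.2 and 58.5 CPM in the treated knockout libraries, against 21.2, 21.2 and 20.4 CPM in the treated parent libraries, and RAG1 (0.78), RAG2 (0.67) and DNTT (0.82), which recombine and diversify antigen receptor genes, were higher. Of 22 T cell receptor genes 14 were higher and 4 lower after camptothecin, with a median of 0.36. In DMSO 10 were higher and 5 lower, with a median of 0.10, and the change of the difference was positive for 10 and negative for 1. PTCRA, the pre-T cell receptor alpha chain, had 4.24, 4.21 and 3.797 CPM in the treated knockout libraries, against 1.72, 1.704 and 1.53 CPM in the treated parent libraries. CD3D (0.23), CD3G (0.42), CD4 (0.73) and LCK (0.42) were higher, and TRBC2 (-0.46) and CD8A (-0.45) were lower.

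Among 20 transcription factors of T lymphoblasts 10 were higher and 4 lower. NOTCH3 had 27.9, 27.6 and 37.5 CPM in the treated knockout libraries, against 6.81, 6.95 and 8.24 CPM in the treated parent libraries. Replicate 3 was the highest of the treated knockout libraries, and the difference was 1.75 in DMSO. RUNX3 had 3.87, 4.296 and 3.15 CPM in the treated knockout libraries, against 18.3, 17.3 and 18.1 CPM in the treated parent libraries, and was lower (-1.21) in DMSO. TCF7 (0.83), GATA3 (0.58) and IKZF1 (0.58) were higher. Of 6 B-lineage markers tested 3 were higher, CD79A (0.94), VPREB1 (0.86) and CD79B (0.33). Of the 2 lower ones IGLL1 differed by -0.98 and the other by -2.34, the largest difference of the list. In introns none of the 6 was higher and 1 was lower, and CD79A, VPREB1 and IGLL1 were not called (edgeR adjusted p = 0.337, 0.689 and 0.923).

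Some lists had no common direction. Interferon-stimulated genes gave 7 higher and 11 lower of 32, with MX1 higher (21.3, 22.5 and 23.4 CPM in the treated knockout libraries, against 9.33, 9.92 and 10.7 CPM in the treated parent libraries) and OAS2 lower (3.51, 2.76 and 2.67 CPM in the treated knockout libraries, against 6.97, 6.01 and 6.597 CPM in the treated parent libraries), both differing alike in DMSO (1.01 and -1.52). Hypoxia genes gave 4 higher and 6 lower of 15, and 6 higher and 3 lower with the library size alone. VEGFA had 11.8, 10.7 and 11.9 CPM in the treated knockout libraries, against 26.6, 28.1 and 26.7 CPM in the treated parent libraries, while SLC2A3 was lower (-0.77) and ADM higher by 0.75. In the schlafen family SLFN12 (-0.87) and SLFN13 (-0.62) were lower beside SLFN11, and SLFN5 was higher with 161, 170.4 and 182 CPM in the treated knockout libraries, against 95.99, 96.9 and 106 CPM in the treated parent libraries. Their differences in DMSO were -0.84, -0.70 and 0.69, and for none of the 6 schlafen genes tested did the difference change with camptothecin at an edgeR adjusted p below 0.05. In introns MX1 was higher (0.98) and SLFN12 lower (-0.48) too. SLFN5 (0.09, edgeR adjusted p = 0.277), SLFN13 (-0.16, 0.762) and OAS2 (-0.18, 0.647) were not called in introns. Of 13 mitochondrially encoded genes 4 were lower, led by MT-ND3 (-0.45), whose call was lost in 7 of the alternatives; without treated knockout replicate 3, 8 were lower, and with the library size alone 1 was lower.

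The 12 largest higher differences among genes of at least 1 CPM were present in DMSO as well, whereas 381 of the 908 genes higher by at least 2-fold were not called there. KCNJ2, a potassium channel, had 2.14, 2.298 and 2.26 CPM in the treated knockout libraries, against 0.0982, 0 and 0 CPM in the treated parent libraries, from 328 against 6 reads. LRRC6 had 9.11, 7.71 and 8.29 CPM in the treated knockout libraries, against 0.278, 0.203 and 0.306 CPM in the treated parent libraries. TP53I11 (4.08), TUBB4A (3.88), DOCK5 (3.67), an activator of RAC, the repressor KLF3 (3.64), the G protein subunit GNG4 (3.56), the pentraxin NPTX2 (3.53), STON2 (3.51), the Dickkopf receptor KREMEN1 (3.41), GFOD1 (3.11) and VCAN (3.11), a matrix proteoglycan, completed the 12 largest higher genes. Their differences in DMSO ran from 2.02 for VCAN to 6.79 for KCNJ2 and all were called. DOCK5 was at 44.8 ± 10.3 CPM in treated knockout cells and 3.53 ± 0.14 CPM in treated parent cells (SD, n = 3 each), and replicate 3 was the highest.

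PNMAL1 had 0 reads in the 3 treated knockout libraries and 487 in the treated parent libraries, at least 138-fold lower when 3 reads over the group are taken as the floor. It had no reads in the untreated knockout libraries either. ZNF626 had 0.0683, 0.0177 and 0.0434 CPM in the treated knockout libraries, against 3.06, 2.498 and 3.17 CPM in the treated parent libraries, from 6 against 501 reads. CDC42BPA (-4.53), ARHGEF12 (-4.36), FLRT3 (-4.29), CDHR1 (-4.18), SYT11 (-3.87), LRRC2 (-3.81) and the granzyme gene GZMA (-3.78) were among the 12 lowest, with IL8 and HIST1H1A. WNT10A, a secreted WNT ligand, differed more after the drug: it had 0.137, 0.106 and 0.0434 CPM in the treated knockout libraries, against 2.62, 2.73 and 3.04 CPM in the treated parent libraries, and 0.0403, 0.0409 and 0.0872 CPM in the untreated knockout libraries, against 0.139 and 0.313 CPM in the untreated parent libraries. The change of its difference was -2.88 (edgeR adjusted p = 0.0128). Without untreated parent replicate 2 and without untreated knockout replicate 3 that p was between 0.0616 and 0.121. ARHGEF12 was the reverse case, with 0.182, 0.0354 and 0.174 CPM in the treated knockout libraries, against 2.68, 2.51 and 2.601 CPM in the treated parent libraries. In DMSO it had 0.0403, 0 and 0 CPM in the untreated knockout libraries, against 6.55 and 4.83 CPM in the untreated parent libraries. The change was 4.08 (edgeR adjusted p = 0.000771). It rests on few knockout reads, 18 in the treated libraries, and was not called in introns (edgeR adjusted p = 0.559).

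Intron reads, which stem largely from unspliced transcripts, were counted in the same libraries and are no independent replicate. Of 19771 genes tested on introns 3582 (18.1%) were higher and 3572 (18.1%) lower in treated knockout cells. Of the 4145 lower genes with introns tested 85.7% had the same sign in introns, 2108 were called the same way and 75 the opposite way. For the 3794 higher genes the figures were 85.4%, 2097 and 136. Among genes lower by at least 2-fold, 97.1% of 380 had the same sign and none was called the opposite way. The intron differences were -3.92 for FOS, -3.59 for EGR1, -2.20 for ATF3, -3.01 for DUSP8 and -2.30 for RELB. JUN and the linker histones had no introns tested. Of the core histones 13 had intron reads tested and all 13 were lower. The annotated exons of HIST1H2AL, HIST1H2BM and HIST1H2AB fill the whole gene (573, 446 and 477 bases), and these genes had no introns tested. Whether the intron reads of the 13 stem from unspliced histone transcripts was not tested. Of the immediate early genes 22 of 36 were lower in introns and 2 higher, of the NF-kappaB genes 17 of 21 lower and 1 higher, and of the replication genes 5 of 47 lower and 7 higher.

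Position and length set some genes apart. Stretches of 10 Mb were compared where they held at least 20 genes of at least 1 CPM. The lowest median was that of chr6:20000001-30000000 (hg19), which holds the main histone cluster. There 78 of 110 such genes (70.9%) were lower in treated knockout cells, with a median of -0.92 against -0.05 in DMSO. Next came chr19:20000001-30000000, with 42 of 67 such genes lower (62.7%) and a median of -0.39. Over all genes tested, 20.2% were lower, but that share includes genes below 1 CPM. Among genes of at least 1 CPM, the share lower ran from 19.8% on chromosome 22 to 39.6% on chromosome 19 over the autosomes. Chromosome 19 carries clusters of zinc finger genes, most of which encode KRAB repressors of transposable elements. Of 223 tested genes named ZNF and a number on chromosome 19, 173 were lower (77.6%) and 5 higher, with a median of -0.46, against -0.11 in DMSO, where 57 were lower. The change of the difference was negative for 116 and positive for none. ZNF154 averaged 4.46 ± 0.404 CPM in treated knockout cells and 17.8 ± 1.65 CPM in treated parent cells, with a difference of -1.99 (edgeR adjusted p = 8.92e-16) and -1.34 in DMSO. ZNF genes on other autosomes were lower in 128 of 206 (62.1%) and higher in 23, with a median of -0.28 against 0.00 in DMSO. In introns 138 of 221 on chromosome 19 were lower and 2 higher, while on the other autosomes 53 of 202 were lower and 21 higher, with a median of -0.09.

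**Figure D4:**
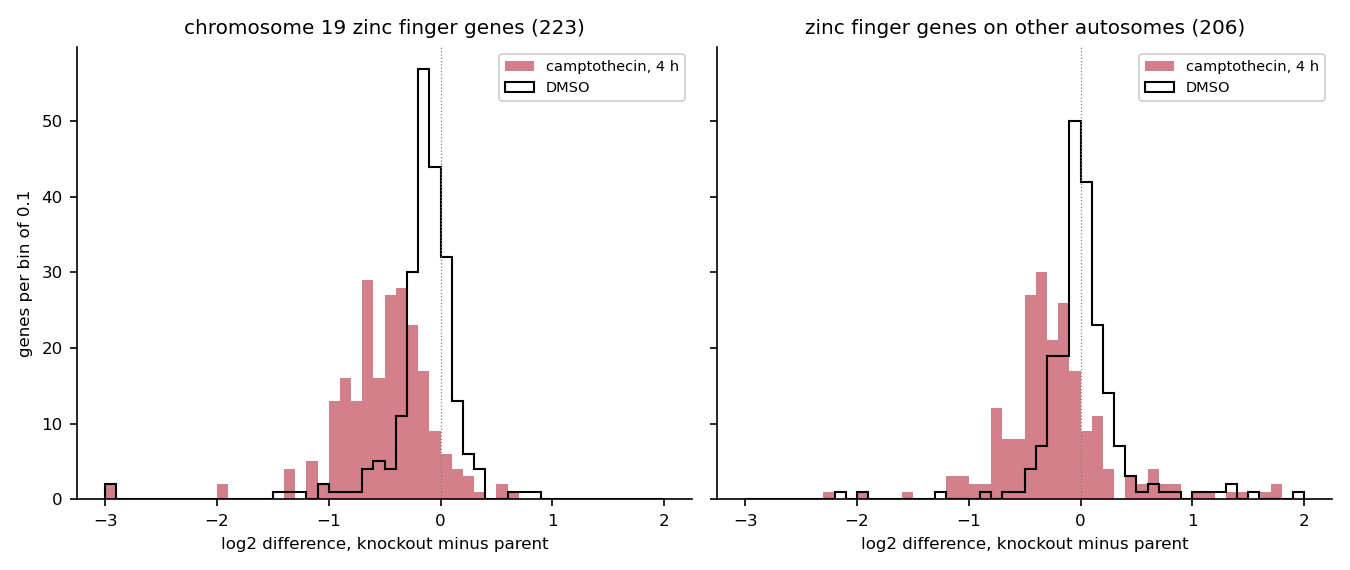
Number of ZNF genes by log2 difference between knockout and parent, in bins of 0.1, on chromosome 19 (left, 223 genes) and on the other autosomes (right, 206 genes). Filled bars are the difference after camptothecin and the outline is the difference in DMSO, with values beyond the axis in the end bins; the filled bars lie to the left of the outline in both panels.

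Very long genes leaned the other way. Among genes of at least 1 CPM, 45.2% of the 341 genes of 300 kb or more were higher in treated knockout cells and 8.50% lower, while of the 5237 genes under 10 kb 19.3% were higher and 23.9% lower. The median log2 difference of the longest class was 0.20 in exons and 0.28 in introns after camptothecin, and 0.02 in DMSO. FMN1, a formin of 429.2 kb, averaged 15.7 ± 2.47 CPM in treated knockout cells and 3.58 ± 0.12 CPM in treated parent cells (SD, n = 3 each), and PDE10A, a phosphodiesterase of 659.3 kb, 3.597 ± 0.495 CPM in treated knockout cells and 0.51 ± 0.0917 CPM in treated parent cells. Both differed alike in DMSO (2.10 and 3.11). With no filter on level but that of the test, 179 of 469 genes of 300 kb or more were higher and 45 lower, and the change of the difference was positive for 69 and negative for 11. Without treated knockout replicate 3, 168 of 463 were higher and 59 lower, with a median of 0.15 instead of 0.20. The share of reads in introns stood higher along with these genes, and its part in the result was not tested.

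**Figure D5:**
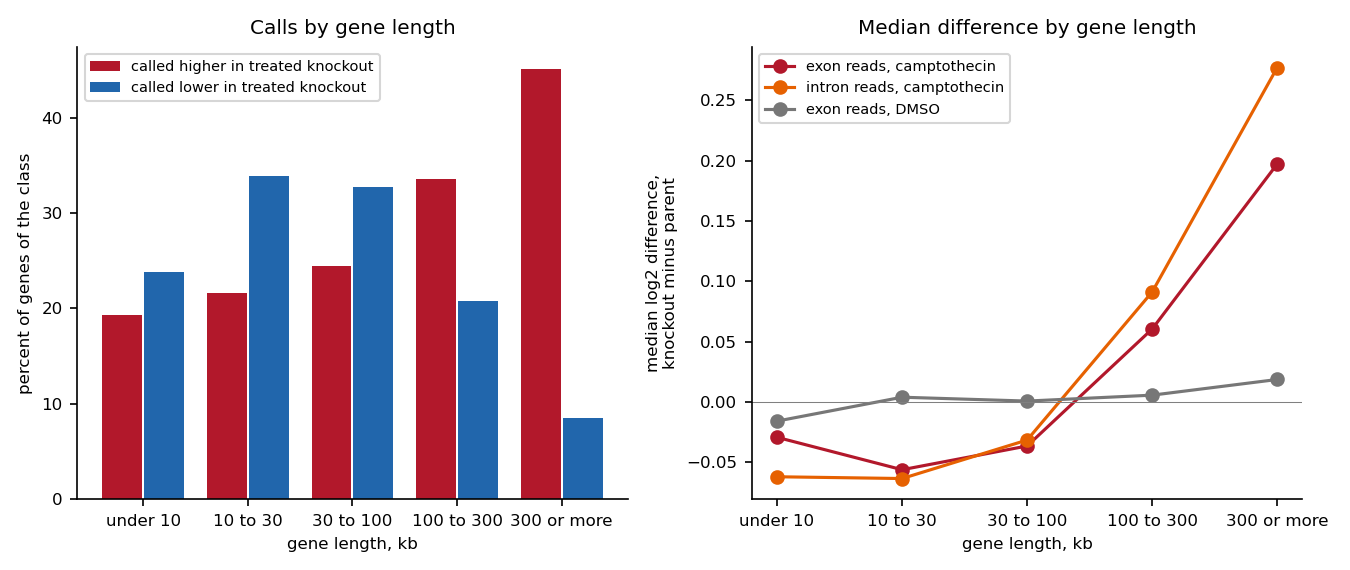
Left, percent of genes called higher or lower in treated knockout cells by class of gene length in kb, for genes of at least 1 CPM. Right, median log2 difference between knockout and parent per class in exon and intron reads after camptothecin and in exon reads in DMSO; the share called higher grows with length to 45.2% and the DMSO medians stay between -0.02 and 0.02.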

How the data were processed

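RNA from CCRF-CEM cells was sequenced in 12 libraries, of which 11 entered the model. The deposited tables give, per the file headers, whole-number read counts per gene in exons, introns and stretches unique to a gene, together with TPM values that the authors computed; the TPM column was not used. Duplicates had been removed, per the deposited file names, and counts of more than 6 digits are written in the tables with 6 significant digits. Per the submitters' processing notes the build was hg19 and the tools included STAR 2.5.4a, Picard 2.9.2, Trimmomatic 0.39 and Trim Galore 0.6.2, with no roles named. How reads were counted, on which annotation and with which strand setting is not given in the sources used here. Reads of a gene and of a gene that overlaps it on the other strand therefore cannot be told apart.

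Of 43863 gene places, 1739 on chromosomes X and Y were left out and 42124 used. Genes absent from a library's table counted as 0 reads, and 178 symbols stood at more than 1 place and kept a row for each. Of the 662 symbols of the gene lists, 4 were in no library's table. Further list genes were not tested, for instance where they lay on chromosomes X or Y or failed the filter on low counts. Exon counts were filtered with filterByExpr, scaled by TMM and fitted with the robust quasi-likelihood test of edgeR 4.0.16 (limma 3.58.1, R 4.3.3) as a model of group means. The biological coefficient of variation was 6.87% (common dispersion 0.00471). Adjusted p-values are Benjamini-Hochberg over all genes tested, and a gene was called below 0.05. The SE is the log2 difference, in absolute value, divided by the square root of F. For the SE that difference was fitted without the small count that edgeR adds for the printed differences. Intron counts went through the same steps. The code was tested on simulated data. Alternatives were the library size alone, DESeq2 1.42.0, no filter, other sets of libraries or reads, no robust prior, X and Y genes in the fit, a replicate block and each of the 11 libraries left out in turn.

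Genes named with values are the 12 largest called differences in each direction at a mean of at least 1 CPM with no overlap between groups, 3 called members per list by size, the 5 largest per direction called in both comparisons, the 4 largest called with opposite signs, and SLFN11, FOS, JUN, EGR1, ATF3 and IER2. Other genes were named after their values were seen. The groups compared, the lists and this rule were chosen with earlier results of these data known.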

Additional observations from a re-analysis of the deposited data

Results flagged for a closer look

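The difference between knockout and parent was larger or smaller with camptothecin than without it for 1202 genes in the positive and 2210 in the negative direction. Each was found by a test of the change itself, treated knockout minus treated parent less untreated knockout minus untreated parent, in the same edgeR model (adjusted p below 0.05). The values that follow are that change on the log2 scale.

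Among immediate early and NF-kappaB genes the changes were negative: DUSP8 -5.18, JUN -3.73, FOS -3.69, EGR1 -3.23, ATF3 -3.17, NR4A3 -2.89, BCL3 -2.48, RELB -2.39, IER2 -2.09, BIRC3 -1.63 and IL8 -1.68. The p53 targets and cell cycle inhibitors gave BBC3 -2.70, BTG2 -2.17, CDKN1A -2.13 and CDKN1B -0.59. Histone genes gave HIST1H1T -3.0, HIST1H2AL -2.54, HIST1H2BM -2.50, HIST1H2AB -2.42, HIST1H1C -1.67 and H2AFJ -0.47, while H3F3A had 0.68. Their processing factors ZNF473 and CASP8AP2 had -0.33 and -0.29.

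Stress and transcription genes gave DDIT3 -1.80, CHAC1 -0.83, ATF5 -0.50, CARS -0.27, YARS -0.19, HEXIM1 -1.48, MEPCE -0.86, ELL2 -0.73, CLK4 -0.68, CLK1 -0.64 and SRSF7 -0.39. Among chaperones HSPA6 had -1.10, and HSPA1L and HSPA1A had 1.13 and 0.99. The hypoxia genes VEGFA and SLC2A3 had -0.72 and -0.62.

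Replication, cell cycle and repair genes gave CDC25C -0.78, KIF2C -0.62, CENPE -0.57, HUS1 -0.53, GINS3 -0.51, ORC5 -0.45, CDC25A -0.39, TOP3A -0.35 and RAD52 -0.27, against CCNE2 0.41, RPA1 0.34, DCK 0.23, TDP1 0.22 and TOP2A 0.21. Lymphoid genes gave RUNX3 -1.03 and HES4 -0.83, against VPREB1 0.65, CD2 0.51, CD1C 0.25 and CD1A 0.23. Among the genes with the largest single differences ARHGEF12 had 4.08, CDC42BPA 1.79, VCAN 1.09, GNG4 0.42, WNT10A -2.88, SYT11 -2.13, RP11-277L2.3 -1.84 and GFOD1 -0.54.

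Of the 68 named genes with a called change, 37 had that call lost or reversed in at least 1 alternative. The call was lost or reversed most often for TDP1 (14 alternatives), IL8 (13), RAD52 (12), YARS (11), VCAN (9), CD1C (9) and CD1A (8). Those of CENPE, CASP8AP2, CARS and ELL2 were among the calls lost or reversed both with all 12 libraries and in introns. Without untreated parent replicate 2 the calls of GFOD1, GNG4, DCK and WNT10A were lost as well, without untreated parent replicate 3 that of TOP2A, without untreated knockout replicate 3 that of WNT10A, and without treated parent replicate 1 that of GNG4.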

How the results depend on the processing

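Depth limits genes with few reads. The cause of each change below was not tested. With the library size alone 6480 genes were higher and 3004 lower after camptothecin, 742 were lower in both comparisons and 2346 changed positively. With all 12 libraries 426 changed positively and 1041 negatively. Introns gave 1270 lower in DMSO, 991 negative changes and 714 lower in both. At 1.5-fold 1751 were higher and 1261 lower.

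Leaving out 1 library gave 3656 to 4398 higher and 4176 to 4991 lower after camptothecin, 825 to 942 and 542 to 651 by at least 2-fold, and 3077 to 3753 and 2719 to 3495 in introns. In DMSO it gave 1484 to 3011 higher and 1097 to 2708 lower, in both comparisons 1196 to 2045 higher and 802 to 1584 lower, and for the change 653 to 2022 positive and 1665 to 2842 negative. DESeq2 gave 4349 higher and 4492 lower.

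Deviations of same-numbered treated libraries correlated by 0.006, 0.000 and 0.037 over all genes tested. Genes with few reads count as much as others there, so these values cannot decide whether same-numbered libraries were handled together. A fit of the 6 treated libraries with replicate as a block gave 4373 higher and 4528 lower, and 8548 of its calls were shared with the main fit. Without the block these libraries gave 4108 higher and 4274 lower.

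Over the named genes, 33 had a call in DMSO and 37 a called change lost or reversed in at least 1 alternative. For the treated call this held for 26 genes. The 5 reversed signs of treated calls were all in introns: H3F3A -0.010, CDC25A 0.15, IGLL1 0.064, EPOR -0.093 and SLFN11 0.63. Introns also lost treated calls with the sign kept, among them those of SLFN5, SLFN13, OAS1, OAS2, TOP2A, ORC5 and RPA1. In DMSO introns reversed IL8 (0.40), SLFN11 (0.57), IER2 (-0.32), TOP2A (-0.054) and RP11-277L2.3 (-0.063), and all 12 libraries reversed HSPA1L (-0.074). For the change, introns reversed GNG4 (-0.55), H3F3A (-0.050), ZNF473 (0.18), CASP8AP2 (0.14), ORC5 (0.15), CDC25A (0.22), CD1C (-0.027) and RP11-277L2.3 (0.027), and total gene reads reversed GNG4 (-0.16).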
